A study of Mus musculus with 6 samples.

Results

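A set of 9 genes of mast cells and basophils was followed in cultured blood progenitors of mouse fetal liver, infected with a hairpin RNA directed at Samd14 (shSamd14) or with a control hairpin. The genes were chosen by name, with earlier results of these data known, and all 9 were found among the 24376 gene IDs of each table. Of these, 7 were taken as mast cell genes, several of which basophils also express (Il1rl1, Ms4a2, Fcer1a, Hdc, Cpa3, Gzmb and Cyp11a1), and 2 as basophil genes (Mcpt8 and Prss34). The progenitors were enriched from C57BL/6 livers at stage E14.5, infected with retrovirus on isolation and grown ex vivo for 3 days, after which 200000 cells lacking both CD71 and Ter119, which mark maturing red cells, were lysed per library. Each group held 3 libraries, numbered as replicates 1 to 3. Both groups carried a retroviral hairpin, and the sources used here give neither the control target nor the hairpin sequences. Nothing in the labels says that the replicates came from separate animals or cultures, so p-values measure the spread between these libraries, which may be technical.

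Mast cells and basophils are granulocytes that carry the high-affinity receptor for immunoglobulin E (IgE) and release histamine and proteases from granules when the receptor is cross-linked. The receptor is built from a chain that binds IgE (Fcer1a), a signal-amplifying chain that spans the membrane 4 times (Ms4a2) and a shared signalling chain (Fcer1g). Both lineages also carry ST2 (Il1rl1), the receptor for interleukin 33, and both arise from Kit-bearing progenitors in which the transcription factor GATA2 is needed for mast cell fate. Cells that are starting on these lineages switch on some of these genes before they have the full granule content of mature cells.

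The stretch before the transcription start is shown for the 3 members whose libraries separated by group. GATA factors, among them GATA2 of these lineages, read the letters GATA. The sequences are from RefSeq (GRCm38.p6), run 5′ to 3′ on the strand of the gene and end at the base before the annotated start. Capitals mark 4 words of 6 bases, namely AGATAA, then AGATAG, further TGATAA and lastly TGATAG, on either strand.

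Il1rl1, distal start (chr1:40429320-40429569, plus strand): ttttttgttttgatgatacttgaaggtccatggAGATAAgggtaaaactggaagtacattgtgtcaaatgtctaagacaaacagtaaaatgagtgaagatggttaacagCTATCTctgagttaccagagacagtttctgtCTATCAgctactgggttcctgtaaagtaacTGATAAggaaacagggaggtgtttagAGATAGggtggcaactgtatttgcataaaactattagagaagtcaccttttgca

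Ms4a2 (chr19:11623720-11623969, minus strand): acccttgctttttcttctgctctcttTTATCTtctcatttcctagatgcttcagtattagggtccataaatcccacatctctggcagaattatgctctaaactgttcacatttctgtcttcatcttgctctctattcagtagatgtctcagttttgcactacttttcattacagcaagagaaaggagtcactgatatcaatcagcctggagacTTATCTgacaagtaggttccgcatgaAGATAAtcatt

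Prss34 (chr17:25298144-25298393, plus strand): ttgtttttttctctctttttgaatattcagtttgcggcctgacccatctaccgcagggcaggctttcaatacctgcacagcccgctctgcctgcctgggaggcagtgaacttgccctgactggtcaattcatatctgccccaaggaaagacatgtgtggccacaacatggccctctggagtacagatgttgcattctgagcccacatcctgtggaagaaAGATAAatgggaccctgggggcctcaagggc

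The distal Il1rl1 window held 5 GATA words, whose first bases lay at -217, -141, -110, -80 and -54 relative to the start. Of all 32851 promoter windows of 250 bases, 0.043% held 5 or more. That start is annotated for the transcript of 1216 bases; the window before the longest transcript, of 5302 bases, held 1 word. Ms4a2 held 3 words, first bases at -224, -37 and -11, and 3 or more were present in 1.35% of all windows. Prss34, Cpa3, Hdc and Fcer1a held 1 word each, and at least 1 word was present in 26.5% of all windows and in 17.7% of the windows of tested genes. Gzmb and Mcpt8 held none. Cyp11a1 had 2 annotated starts, 1 with a single word and 1 with none. A matching word is a feature of the sequence, shows no binding and does not tell GATA2 from other GATA factors.

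Libraries held 20584169 to 26462797 estimated counts. Values are given as counts per 1000000 (CPM), which follow the number of reads, and as transcripts per 1000000 (TPM), which also correct for transcript length and so allow genes to be compared. Samd14 was lower in each of the 3 libraries with its shRNA, at 41.9, 38.8 and 39.4 CPM against 82.0, 82.1 and 83.8 CPM in control, which is -1.05 on the log2 scale (SE 0.06; edgeR adjusted p = 4.69e-07). Transcripts of progenitors were abundant, with control means of 181 TPM for the stem cell factor receptor gene Kit, 173 TPM for Myb and 34.6 TPM for Cd34. Tfrc, which encodes CD71, was still present as RNA at 325 ± 27.3 TPM (SD, n = 3) in control libraries, although the cells had been sorted against its protein. Of the 9 members, 8 passed the filter on low counts and were tested, and Fcer1a did not.

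Il1rl1 encodes ST2, whose membrane form passes the interleukin 33 signal and whose shorter soluble form, made from the same gene, binds the cytokine outside the cell. It lies on chromosome 1 (40429570 to 40465415, plus strand, mm10; ENSMUSG00000026069) and was the single member that passed the test. The control libraries held 164, 133 and 131 CPM, and the shSamd14 libraries 177, 190 and 199 CPM. Every shSamd14 library lay above every control library, with control replicate 1 closest to them. The means were 143 ± 18.3 and 189 ± 10.9 CPM (SD, n = 3 each), a rise of 1.32-fold (log2 fold change 0.41, SE 0.08; edgeR adjusted p = 0.0213 over 12670 genes).

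The size of the difference held in all 13 alternatives (log2 fold change 0.34 to 0.51), but the call did not. In TPM the control libraries held 76.4, 56.7 and 56.9 and the shSamd14 libraries 72.7, 81.6 and 90.1, so that control replicate 1 lay above shSamd14 replicate 1 and the groups overlapped. With limma on log2(TPM + 1) the difference was 0.37 on the log2 scale and did not pass (adjusted p = 0.273); this fit changed the unit, the test and the filter together. In edgeR the call also ended without control replicate 2 (log2 fold change 0.36, adjusted p = 0.068), control replicate 3 (0.34, 0.0664), shSamd14 replicate 2 (0.40, 0.114) or shSamd14 replicate 3 (0.36, 0.0662), and held without control replicate 1 (0.51, 0.00332) or shSamd14 replicate 1 (0.44, 0.0169).

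**Figure D1:**
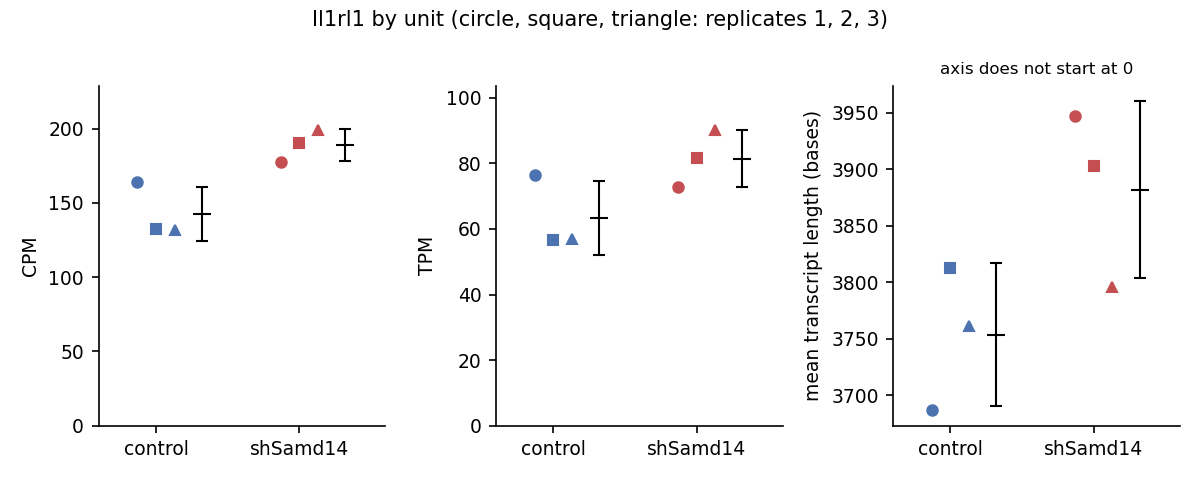
Il1rl1 in each library as CPM, as TPM and as the mean transcript length in bases that the deposited tables give, with the mean and SD of 3 libraries as a black mark and bar. In CPM the lowest shSamd14 library (177) is above the highest control library (164), whereas in TPM the groups overlap (76.4 in control replicate 1, 72.7 in shSamd14 replicate 1).

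**Figure D2:**
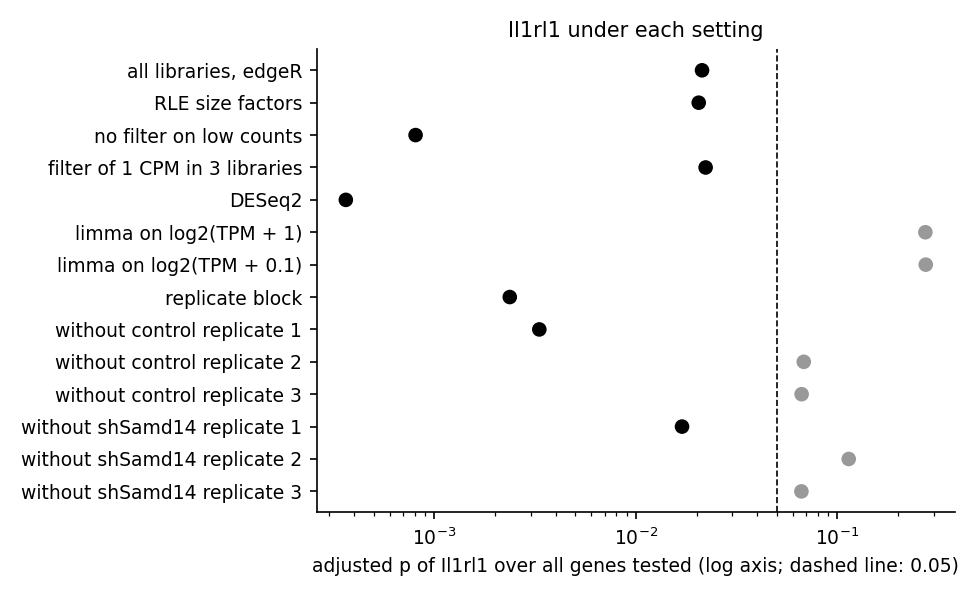
Adjusted p of Il1rl1 over all genes tested, on a log axis, for all libraries and for each alternative. Black points lie under 0.05 and grey points do not; the highest values are those of limma on log2(TPM + 1) (0.273) and log2(TPM + 0.1) (0.274).

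TPM, unlike CPM, divides by the length of the transcripts to which reads were assigned, and for Il1rl1 this length varied between libraries. The deposited tables list 5 transcripts of the gene and give for each library a mean length weighted by their estimated abundance. In GENCODE M21, 2 of these transcripts reach the last exon and measure 5302 and 5053 bases, and 2 others with 8 exons end earlier and measure 2661 and 1216 bases. The mean length was 3687, 3813 and 3761 bases in the control libraries and 3947, 3903 and 3796 bases in the shSamd14 libraries. These ranges overlapped, since shSamd14 replicate 3 was below control replicate 2. The group means of 3753 ± 63.3 and 3882 ± 78.1 bases (SD, n = 3 each) differed by 129 bases, with p = 0.2 in a two-sided exact permutation test, where 0.1 is the smallest p that 3 against 3 allows. Length was not the only difference between the units. Cpa3 measured 1452 bases in every library, yet its TPM was not a fixed multiple of its CPM. It had 24.8 CPM and 30.2 TPM in control replicate 1, and 23.3 CPM and 26.7 TPM in shSamd14 replicate 1. The part of length in the overlap of Il1rl1 in TPM was not tested. How the reads of Il1rl1 were divided between the membrane and the soluble form was not analysed here.

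Ms4a2, the amplifying chain of the IgE receptor (chromosome 19, 11615523 to 11623719, minus strand), had 7.44, 9.19 and 8.24 CPM in control and 10.1, 10.7 and 10.2 CPM in shSamd14 libraries. The groups did not overlap in CPM, nor in TPM, where control libraries held 11.9, 13.7 and 12.6 and shSamd14 libraries 15.1, 16.8 and 16.3. The log2 fold change of 0.32 (SE 0.12) did not pass over all genes (edgeR adjusted p = 0.196). It was 0.24 to 0.40 with 1 library left out at a time.

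Fcer1a, the chain that binds IgE, was almost without reads. It had 0, 5 and 1 reads in the control and 0, 2 and 1 in the shSamd14 libraries, 9 in all, against 1347 for Ms4a2. In the 2 libraries with no read, a count of 0 allows up to 3 counts, which is 0.146 CPM in control replicate 1 and 0.118 CPM in shSamd14 replicate 1, counting error only. No difference between the groups was detectable at this depth. The third chain of the receptor, Fcer1g, which myeloid cells share, stood at 76.2 ± 20.3 and 79.5 ± 17.4 TPM (SD, n = 3 each; log2 fold change 0.04, edgeR adjusted p = 0.961).

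**Figure D3:**
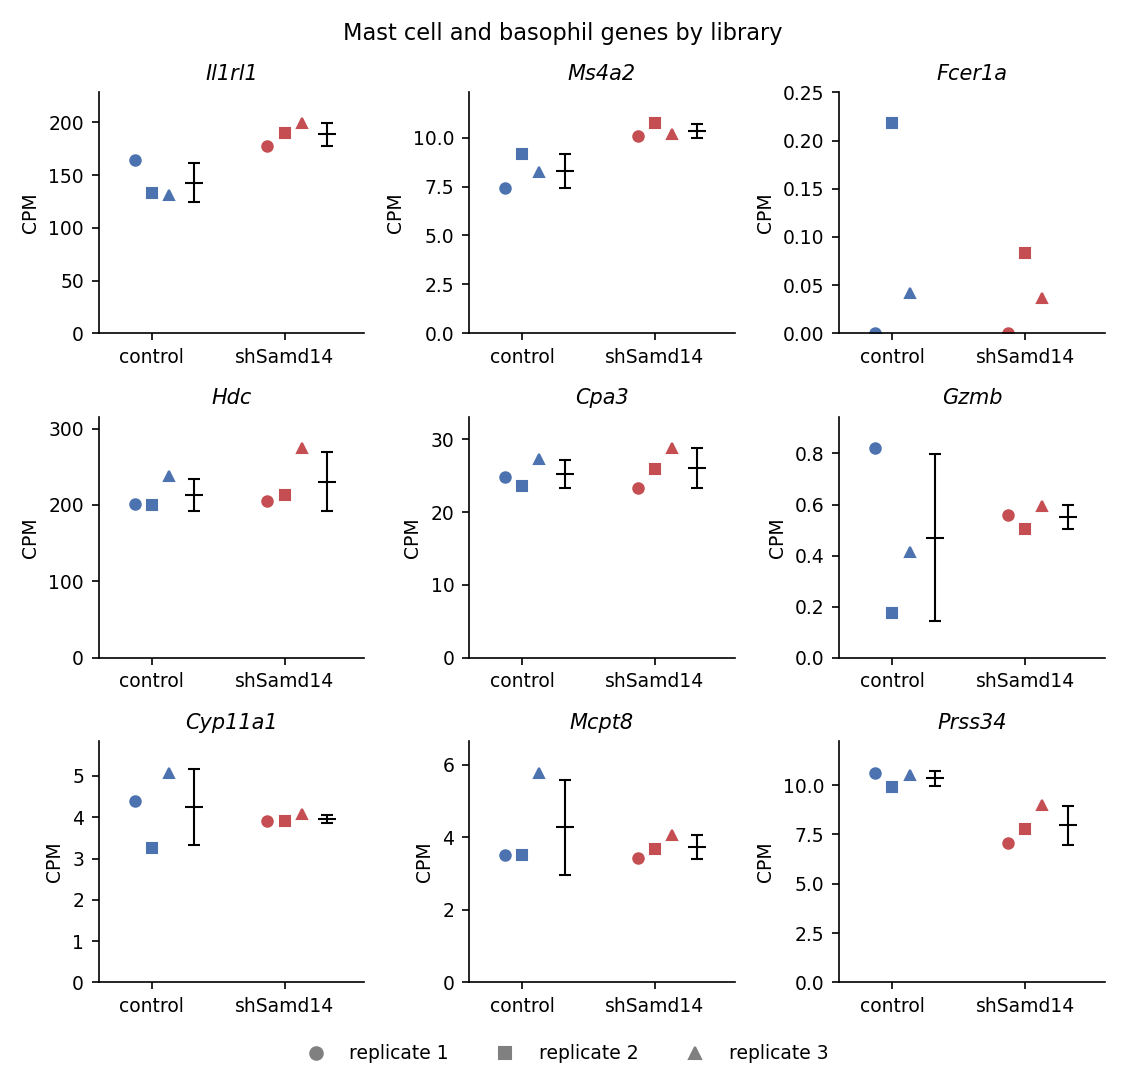
CPM of the 9 genes in each library, with control libraries in blue and shSamd14 libraries in red, and the mean and SD of 3 libraries as a black mark and bar (none for Fcer1a, with 9 reads in all). Each vertical axis starts at 0 and has its own scale; Il1rl1 and Ms4a2 are higher and Prss34 is lower in every shSamd14 library.

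Hdc, which encodes histidine decarboxylase, the enzyme that makes histamine, was the most abundant member. The gene lies on chromosome 2 (126593667 to 126619299, minus strand). Control libraries held 201, 200 and 238 CPM and shSamd14 libraries 205, 212 and 274 CPM. The groups overlapped, and replicate 3 was the highest library of each. The log2 fold change was 0.11 (SE 0.12; edgeR adjusted p = 0.731), and it was -0.035 without shSamd14 replicate 3.

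Cpa3, a granule carboxypeptidase that is switched on early in the mast cell lineage (chromosome 3, 20215620 to 20242181, minus strand), hardly differed in mean. Control libraries held 24.8, 23.5 and 27.3 CPM and shSamd14 libraries 23.3, 25.9 and 28.8 CPM. The highest and the lowest library both belonged to the shSamd14 group. On the log2 scale the difference was 0.05 (SE 0.09; edgeR adjusted p = 0.867).

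Gzmb, the granule serine protease granzyme B, rested on 4 to 17 reads per library (chromosome 14, 56258838 to 56262260, minus strand). Control libraries held 0.821, 0.174 and 0.416 CPM and enclosed the shSamd14 libraries at 0.559, 0.503 and 0.593 CPM. The difference of 0.26 on the log2 scale had an SE of 0.43 (edgeR adjusted p = 0.827), so no difference was detectable at this depth.

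Cyp11a1, the mitochondrial enzyme that cuts the side chain of cholesterol to make pregnenolone, is known outside steroid tissues in mast cells and some lymphocytes (chromosome 9, 58006411 to 58027023, plus strand). Control libraries held 4.40, 3.27 and 5.08 CPM and again enclosed the shSamd14 libraries, at 3.91, 3.90 and 4.08 CPM. The log2 fold change was -0.10 (SE 0.17; edgeR adjusted p = 0.837). Its sign turned without control replicate 3 (0.047).

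The basophil genes both encode granule serine proteases, mast cell protease 8 and protease 34, which mark basophils in the mouse. Prss34 (chromosome 17, 25298394 to 25300165, plus strand) had 10.6, 9.89 and 10.5 CPM in control and 7.07, 7.80 and 9.0 CPM in shSamd14 libraries. All 3 shSamd14 libraries were below all 3 control libraries, in TPM too (15.6, 13.7 and 14.6 against 9.76, 11.1 and 13.2). The log2 fold change of -0.38 (SE 0.12) did not pass over all genes (edgeR adjusted p = 0.136). With 1 library left out it lay between -0.48 and -0.31, with adjusted p values from 0.0732 to 0.37.

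Mcpt8 (chromosome 14, 56082166 to 56085273, minus strand) had 3.53, 3.53 and 5.79 CPM in control and 3.43, 3.69 and 4.08 CPM in shSamd14 libraries. Control replicate 3 alone was high and the other libraries overlapped. The log2 fold change was -0.20 (SE 0.20; edgeR adjusted p = 0.685), and 0.076 without control replicate 3. The lower mean of shSamd14 therefore rested on that library.

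Of the 8 tested members, 1 was called higher and none lower at an adjusted p under 0.05, where 1.32% of all 12670 tested genes were called higher and 1.26% lower in edgeR. At an unadjusted p under 0.05 there were 2 higher (Il1rl1 and Ms4a2) and 1 lower (Prss34), where 7.07% of all tested genes were higher and 7.92% lower at that level. DESeq2 called 1 higher and none lower, against 1.48% and 1.88% of all genes. With limma on log2(TPM + 1) no member was called, against 0.93% of its 11394 genes higher and 0.544% lower. All 3 shSamd14 libraries lay above the control libraries in CPM for 2 members and below them for 1, and the shares over all tested genes were 10.5% and 10.2%. The median log2 fold change was 0.19 over the 6 tested mast cell genes, 5 of them positive, and -0.29 over the 2 basophil genes, both negative, against 0.006 over all tested genes. Because the members were chosen with earlier results of these data known, these counts describe the members and do not test the list. Whether mast cell and basophil genes differ in their response was not tested.

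**Figure D4:**
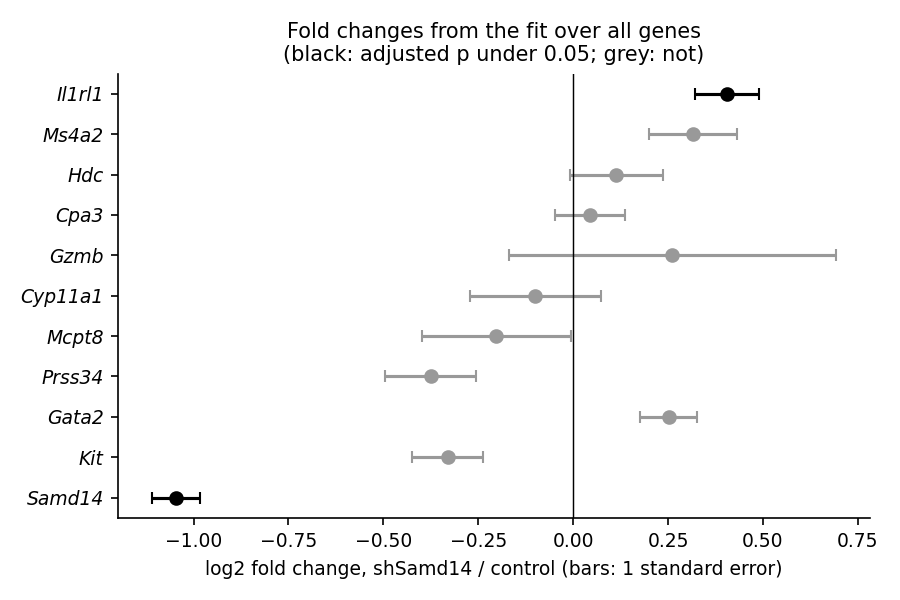
Log2 fold change of shSamd14 against control with 1 standard error for the 8 tested members, with Gata2, Kit and Samd14 below them. Black marks an adjusted p under 0.05 over all genes, which Il1rl1 (0.41) and Samd14 (-1.05) reached.

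In length-corrected levels the members differed widely. Control means in TPM ran from Hdc (149 ± 13.2; SD, n = 3 for each) through Il1rl1 (63.3 ± 11.3), Cpa3 (29.6 ± 2.24), Prss34 (14.6 ± 0.912), Ms4a2 (12.7 ± 0.898), Mcpt8 (8.79 ± 2.52) and Cyp11a1 (4.05 ± 0.887) to Gzmb (0.573 ± 0.411) and Fcer1a (0.143 ± 0.191). The library ranges of neighbours in this order did not overlap, apart from Gzmb and Fcer1a. Prss34 and Ms4a2 exchanged places in shSamd14, at 11.4 ± 1.73 and 16.1 ± 0.868 TPM (SD, n = 3 each), and no neighbouring ranges overlapped there. Hdc alone made up 57.5% of the summed TPM of the mast cell genes in control and 55.1% in shSamd14.

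Summed over the 7 mast cell genes, control libraries held 270, 239 and 270 TPM and shSamd14 libraries 259, 284 and 345 TPM. The groups overlapped in TPM, and the ratio of means, 1.14, was 1.05 without shSamd14 replicate 3. In CPM the same sum was 403, 369 and 410 in control and 420, 444 and 517 in shSamd14 libraries, a ratio of 1.17, and the groups did not overlap. The sum of both basophil genes was 23.1, 20.9 and 26.3 TPM in control and 16.7, 18.8 and 21.9 TPM in shSamd14 libraries, a ratio of 0.816, and these ranges overlapped as well. In CPM it was 14.2, 13.4 and 16.3 against 10.5, 11.5 and 13.1, a ratio of 0.80, with every shSamd14 library below every control library. No test was made of these sums. In bulk RNA, fewer cells of a type and less RNA per cell cannot be told apart.

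The label of mast cell genes was met only in part. Genes of mature mast cells were near or at 0: Mcpt4 and the receptor gene Mrgprb2 had no read in any library, and Tpsb2 had 4 reads in control replicate 1 and none elsewhere. Tpsab1 had no read either, but whether mast cells of the C57BL/6 strain make its transcript was not examined here. Cma1, a chymase, stood at 5.20 ± 1.62 and 5.66 ± 0.71 TPM (SD, n = 3 each). Cd200r3, a receptor of basophils and mast cells, stood at 4.99 and 4.89 TPM; both were named after their values were seen, as were Fcer1g and Il1rap. Mcpt8 and Gzmb lie in the cluster of mast cell protease and granzyme genes on chromosome 14, in which 6 granzyme neighbours (Gzmc, Gzmd, Gzme, Gzmf, Gzmg and Gzmn) had no read in any library, while Ctsg, the neutrophil protease cathepsin G, stood at 270 TPM in control and 314 TPM in shSamd14. Genes of such clusters are similar in sequence, and how reads were shared between them is uncertain.

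Other genes of these pathways were taken from lists. In those of IgE receptor signalling, interleukin 33 receptor signalling, and surface and secretion, edgeR and DESeq2 each called 1 gene higher and 0 lower. Over all tested genes, edgeR called 1.32% higher and 1.26% lower, and DESeq2 1.48% and 1.88%. At an unadjusted p under 0.05 in edgeR, these lists held 3, 1 and 4 higher and 1, 1 and 1 lower genes. The shares over all tested genes at that level were 7.07% higher and 7.92% lower. Of 22 tested genes of IgE receptor signalling, Lat, the adaptor that assembles the signalling complex below the receptor, rose from 10.9 ± 1.08 to 15.1 ± 1.06 CPM (SD, n = 3 each; log2 fold change 0.47, edgeR adjusted p = 0.0288), and none was called lower. The median of this list was 0.06. Of 10 tested genes of interleukin 33 receptor signalling, Traf6, the ubiquitin ligase of this pathway, rose from 58.6 ± 2.07 to 71.4 ± 3.35 CPM (log2 fold change 0.29, edgeR adjusted p = 0.027), and none was called lower, with a median of -0.02. Il1rap, the co-receptor of ST2, stood at 6.71 ± 0.577 and 6.51 ± 0.99 TPM (SD, n = 3 each; log2 fold change -0.02). Without 1 library, Lat missed the threshold in 4 of 6 fits (adjusted p 0.101 to 0.139, without control replicates 1 or 3 or shSamd14 replicates 1 or 2) and Traf6 in all but the one without shSamd14 replicate 3 (0.0559 to 0.138). Traf6 also missed it with limma on log2(TPM + 1) (adjusted p = 0.141).

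Of 16 tested genes of the surface and of secretion, Rab27b, a GTPase of granule release, rose 1.39-fold (log2 fold change 0.48, edgeR adjusted p = 0.0102; 0.0731 without shSamd14 replicate 2), and none was called lower. The median was 0.14. Lat and Rab27b are also genes of megakaryocytes and platelets. Markers of megakaryocytes were higher in the same libraries. Of 8, 3 were called higher, and in CPM all 8 lay above control in every shSamd14 library. The shares over all tested genes were 1.32% called higher and 10.5% above control in CPM. These markers summed to 276 to 295 TPM in control and 366 to 407 TPM in shSamd14. The marker of highest level, Pf4, rose from 153 ± 8.15 to 207 ± 18.7 TPM (SD, n = 3 each; log2 fold change 0.43, edgeR adjusted p = 0.0112; 0.0626 without control replicate 1 and 0.0907 without shSamd14 replicate 2). The part of these cells in the values of Lat and Rab27b was not tested.

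No gene of granule proteases (9 tested), histamine and other mediators (16), partners of Cyp11a1 (5) or transcription factors (18) passed edgeR's test over all genes. At an unadjusted p under 0.05 these lists held 0, 1, 0 and 5 higher and 1, 3, 0 and 2 lower genes, and DESeq2 called 2 transcription factors higher and 1 protease, Ctsc, lower. Over all tested genes 7.07% were higher and 7.92% lower at an unadjusted p under 0.05, and DESeq2 called 1.48% higher and 1.88% lower. The members of smallest p were Ctsc, which activates granule serine proteases (log2 fold change -0.20, adjusted p = 0.0796), the chemokine gene Ccl3 (-0.78, 0.145), Star, which delivers cholesterol to Cyp11a1 (-0.16, 0.717), and Lmo2, a partner of GATA factors (0.24, 0.0653). Without control replicate 2, Ccl3 (edgeR adjusted p = 0.0365) and Lmo2 (0.0362) passed. The medians were -0.01, -0.14, 0.07 and 0.08.

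**Figure D5:**
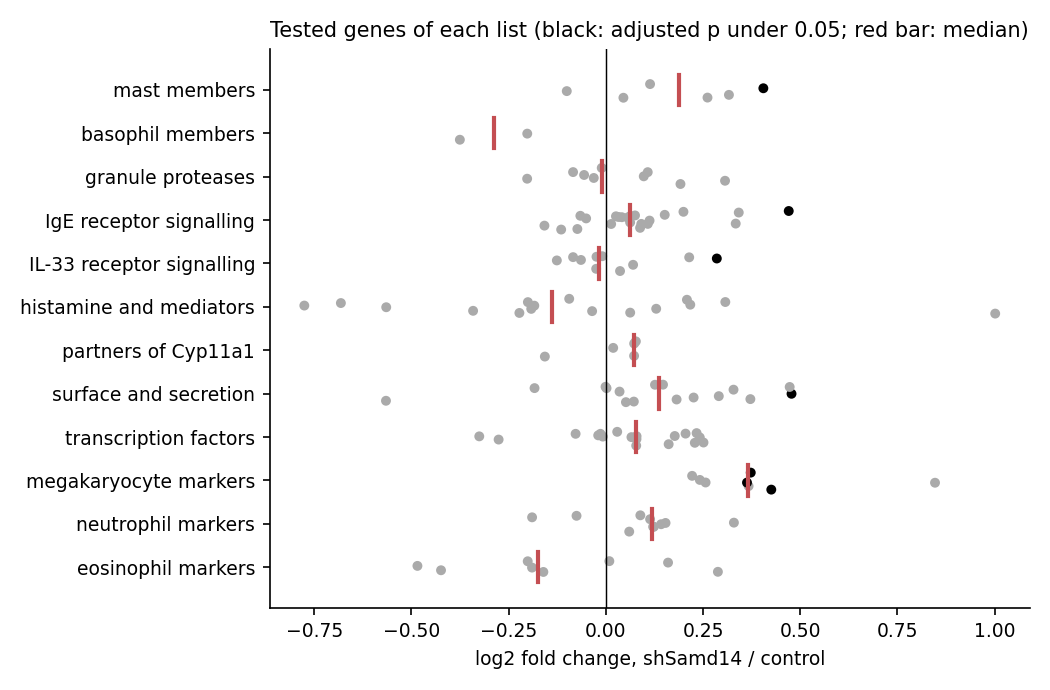
Log2 fold changes of the tested genes of each list, 1 point per gene, black where the adjusted p over all genes is under 0.05, with the list median as a red bar (points are spread vertically for visibility). The median is 0.19 for the mast cell genes, -0.29 for the basophil genes and 0.37 for the megakaryocyte markers.

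Gata2 and Kit, which mast cell progenitors depend on, did not pass in edgeR with all libraries. Gata2 had 69.3, 80.2 and 64.9 CPM in control and 87.7, 83.3 and 84.2 CPM in shSamd14 (log2 fold change 0.25, SE 0.08, edgeR adjusted p = 0.105), and passed without control replicate 2 (0.34, adjusted p = 0.0263) and without a filter on low counts (adjusted p = 0.0323). Kit had 656, 560 and 495 CPM in control and 474, 465 and 422 CPM in shSamd14 (log2 fold change -0.33, SE 0.09, adjusted p = 0.0943), and passed without control replicate 3 (-0.43, adjusted p = 0.0222), with DESeq2 (adjusted p = 0.00869) and without a filter on low counts (adjusted p = 0.0224).

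Markers of other cell types give the setting of these values. The 10 neutrophil markers summed to 6804 to 11804 TPM in control and 8178 to 12167 TPM in shSamd14 libraries, with S100a8 highest over all libraries (S100a9 was as high in control, at 3050 against 3047 TPM), and replicate 3 was the highest library of each group, as it was for Hdc and Cpa3. The part of such cells in the values of Hdc and Cpa3 was not tested. The 9 eosinophil markers, led by the granule protein gene Prg2, summed to 128 to 176 and 95.1 to 167 TPM. The 10 markers of cytotoxic lymphocytes, which also make granzyme B, summed to 14.6 to 20.3 and 16.4 to 29.3 TPM, almost all of it Nkg7, while Gzma, Klrb1c and Ncr1 had no read. The 10 macrophage markers, led by Csf1r, summed to 9.13 to 16.3 and 10.3 to 15.8 TPM, and C1qa and Clec4f had no read. The 7 hepatocyte markers summed to 39.5 to 81.2 and 33.1 to 45.9 TPM, nearly all from Apoa1, with Serpina1a without reads. The 5 erythroid genes, led by Hba-a2 of the near-identical alpha globin copies, summed to 3865 to 6837 and 6875 to 8747 TPM. In this sum every shSamd14 library lay above every control library. The same held for Hba-a1 and for Hba-a2 in TPM, whereas in CPM the groups overlapped for both genes. None of the genes of these 6 lists was called by edgeR or by DESeq2. At an unadjusted p under 0.05 in edgeR there were 2 eosinophil genes and 1 erythroid gene, Tfrc, all lower in shSamd14, and none in the other lists, where 7.92% of all tested genes were lower at that level. Of the 5 erythroid genes, 3 had a negative log2 fold change and 2 a positive one, Hba-a1 (0.65, edgeR adjusted p = 0.346) and Hba-a2 (0.56, 0.47).

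An earlier search of these same data had found 2 pairs of 7-base words in the 3′ untranslated regions of genes that rose (CTGATTA with TGATTAA) and of genes that fell (CAAGTGT with AAGTGTA). In the longest annotated 3′ untranslated region of each member, Il1rl1, which rose, held CAAGTGT and neither of the first pair. Ms4a2 held TGATTAA, Gzmb held CTGATTA, and the other 6 members held none of the words. The region searched for Ms4a2, of 1953 bases, was longer than the transcripts to which its reads were assigned (1211 and 1010 bases). Its word may therefore lie outside the measured transcripts. Among the 11558 searched genes that were not called, 14.4% held a word of the first pair and 22.2% a word of the second.

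The genes whose CPM followed the same order of libraries were looked up for 2 members. Over the 6 libraries, log2(CPM + 1) of Hdc had its highest Pearson r with Emilin1 (0.994), Cyth1 (0.992) and Chdh (0.992), and that of Il1rl1 with Optn (0.994), Lpin2 (0.989) and Sec24b (0.985). With 6 libraries, r was over 0.9 for 228 of 8728 genes in the case of Hdc and for 123 in that of Il1rl1, so these names describe the ranking only.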

How the data were processed

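Polyadenylated RNA of 3 control and 3 shSamd14 libraries was analysed. CASAVA 1.8.2, RSEM 1.2.15, Bowtie 1.0.1 and the build mm10 are named in the submitters' processing notes; the annotation release and strand use are not given there. The authors deposited, per the file headers, a gene table per library with expected counts (reads shared between matching transcripts), TPM, FPKM and abundance-weighted transcript length. FPKM, as deposited by the authors, was only checked against TPM. Of 24376 IDs, 23580 had a symbol in GENCODE M21 (GRCm38), which gave the coordinates.

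Rounded expected counts were tested with edgeR 4.0.16 in R 4.3.3: filterByExpr (minimum count 10, minimum total 15; 12670 genes), TMM, robust quasi-likelihood F test, two-sided, p-values adjusted over these genes (Benjamini-Hochberg). The threshold was an adjusted p of 0.05, and the SE is the absolute log2 fold change over the square root of F. The script was tested on simulated data. Depth limits precision: 3 counts are 0.113 to 0.146 CPM. No pair of libraries within a group agreed within sampling noise (chi-square per gene 5.73 to 12.2).

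Members and lists were chosen with earlier results of these data known. The rule for names takes Samd14, all members, Gata2, Kit, in each pathway list up to 4 genes past the threshold or else the one of smallest p, in each cell type list the gene of highest TPM, and 3 genes most alike for 2 members. Alternatives were RLE factors, other filters, DESeq2 1.42.0, limma 3.58.1 on log2(TPM + 1) and log2(TPM + 0.1) for genes with TPM of at least 1 in 3 libraries, a replicate block, and leaving out each library.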

Additional observations from a re-analysis of the deposited data

How the results depend on the processing

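Il1rl1 kept its positive sign in all 13 alternatives (log2 fold change 0.34 to 0.51) but passed in 7. It missed the threshold on log2(TPM + 1) (0.37, adjusted p = 0.273, so that 0 mast cell genes were called) and log2(TPM + 0.1) (0.37, 0.274; 0 called), and in 4 of the 6 fits with a library left out (range over the 6 fits 0.34 to 0.51; 0 to 1 mast cell genes called). Ms4a2 and Prss34 kept their sign in all 13 and passed in none. The sign turned with 1 library left out for Cpa3 (-0.039 to 0.11), Hdc (-0.035 to 0.19), Gzmb (-0.14 to 0.88), Cyp11a1 (-0.26 to 0.047) and Mcpt8 (-0.33 to 0.076), and Cpa3 was at -0.0031 without control replicate 2. Of all genes, 167 were called higher and 160 lower. Without a filter 261 were lower, on log2(TPM + 1) 106 higher and 62 lower, on log2(TPM + 0.1) 106 and 64. With 1 library left out there were 63 to 133 higher and 65 to 163 lower, fewest without shSamd14 replicate 2. Of the genes in the pathway lists, 3 were called higher and 0 lower; 7 were higher without a filter, 5 higher and 1 lower with DESeq2, and 0 to 4 higher and 0 to 1 lower with 1 library left out. With the replicate number as a block, 322 genes were called higher and 360 lower, in the pathway lists 10 and 1, and Il1rl1 had 0.41 (adjusted p = 0.00237). Same-numbered libraries deviated together with r of -0.072, 0.153 and 0.272 for numbers 1, 2 and 3. Not every library correlated best with its own number: control replicate 1 did so with shSamd14 replicate 2 (0.051). Control replicate 3 and shSamd14 replicate 3 correlated best with each other. Whether libraries of the same number were prepared together cannot be told from so few libraries, and the labels do not say. Depth limits Fcer1a (9 reads) and Gzmb (73 reads). Gzmb did not pass the filter of limma on TPM or that of 1 CPM in 3 libraries, and was not tested in those fits. Lmo2, Gata2, Kit and Ccl3, which did not pass in the edgeR fit of all libraries, did so under other settings: Lmo2, Gata2 and Kit without a filter (adjusted p 0.0251, 0.0323 and 0.0224), Lmo2 and Kit with DESeq2 (0.0345 and 0.00869), and Lmo2, Gata2, Kit and Ccl3 with the replicate block (0.0251, 0.0359, 0.00554 and 0.0144).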
